A study of Mus musculus with 4 samples.

Results

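Transcripts of the cell cycle cyclins were measured in epidermal cells sorted from mouse pups after induction of the microRNA miR-203. The members were all probe sets annotated to a single gene with the symbol Ccnd1, Ccnd2, Ccnd3, Ccne1, Ccne2, Ccna2, Ccnb1, Ccnb2 or Ccnf. This gave 21 probe sets for 8 genes, of 45037 probe sets and 18193 named genes in all. For Ccnb1 0 single-gene probe sets were listed, so its transcript was not analysed here. Probe sets whose mean over the 4 arrays reached the 40th percentile of all probe sets, a log2 value of 4.17, were tested, and 19 of the 21 did so. The 2 that did not, one of Ccnd3 and the other of Ccnf, are given as values.

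The induced pups carried K14-rtTA/TRE-miR-203/K14-H2BGFP (labelled DP), and their control littermates carried TRE-miR-203/K14-H2BGFP (labelled SP) and are also labelled WT. Both groups therefore held the doxycycline-responsive miR-203 transgene and the nuclear green fluorescent protein driven by the keratin 14 promoter, and they differed in the rtTA activator that doxycycline switches on. Cells were sorted from the epidermis of FVB pups at postnatal day 4, 24 h after the Dox injection, and each group had 2 arrays, labelled biological replicates. The keratin 14 promoter is active in the basal layer of the epidermis and in the outer root sheath of the hair follicle, so expression of the transgene depends on those cells. Effects of rtTA and of miR-203 cannot be told apart in this design. The labels do not say whether a replicate is 1 pup or a pool. The basal markers Krt14 (14.01 and 13.96 in induced arrays, 14.10 and 14.13 in control arrays) and Krt5 (13.65 and 13.61 induced, 13.82 and 13.79 control) lay near the top of the log2 scale, as did the suprabasal keratin Krt10 (14.28 and 14.19 induced, 14.32 and 14.28 control). The sorted cells thus held transcripts of both layers.

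Cyclins are the regulatory subunits of cyclin-dependent kinases (CDKs), and their levels rise and fall through the division cycle. D cyclins pair with CDK4 and CDK6 in G1 and answer to growth signals, E cyclins pair with CDK2 at the entry to S phase, cyclin A2 works with CDK2 and CDK1 from S phase to G2, and B cyclins pair with CDK1 to bring about mitosis. Cyclin F activates no kinase and instead picks substrates for an SCF ubiquitin ligase. In skin, dividing cells lie in the basal layer of the epidermis and in the matrix of the growing hair follicle, and they leave the cycle as they move outwards and differentiate. miR-203 is a microRNA of the differentiating layers. Its 3p strand is shown because its seed decides which messenger RNAs the induced microRNA can pair with. In RefSeq it lies on build GRCm38.p6 at chr12:112130927-112130948, plus strand, and the capitals mark the seed, bases 2 to 8 from the 5′ end.
mmu-miR-203-3p: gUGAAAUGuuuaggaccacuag
No 3′ untranslated sequence of a cyclin was used here, so seed matches were not searched.

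The promoters of the cyclins are shown because the genes of G1 to S entry and those of mitosis are known to use different promoter elements, and because cyclins of both kinds were at their lowest on the same array. RefSeq windows of 300 bases, 250 before and 50 after the gene start, were held for 5 of the 9 genes, with 2 start sites for Ccnd3 (GRCm38.p6). Not in the table were Ccnd1, Ccnd2, Ccne2 and Ccna2. The motifs searched on both strands were the E2F sites TTTCGCGC, TTTGGCGC and TTTCCCGC, the cell cycle homology region (CHR) TTTGAA, and the CCAAT box. Of 32851 promoter windows of this length, 1.84% held an E2F site as spelled here, 17.9% a CHR and 37.4% a CCAAT box. Capitals mark these motifs. The window of Ccne1 is at chr7:38107441-38107740, that of Ccnb2 at chr9:70421505-70421804 and that of Ccnf at chr17:24251360-24251659, all on the minus strand.
Ccne1: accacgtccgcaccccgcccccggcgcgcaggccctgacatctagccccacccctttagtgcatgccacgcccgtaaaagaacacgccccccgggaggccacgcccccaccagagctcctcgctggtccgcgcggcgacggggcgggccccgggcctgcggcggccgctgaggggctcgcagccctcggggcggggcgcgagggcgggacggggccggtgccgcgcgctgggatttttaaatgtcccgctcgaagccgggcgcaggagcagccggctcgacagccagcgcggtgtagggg
Ccnb2: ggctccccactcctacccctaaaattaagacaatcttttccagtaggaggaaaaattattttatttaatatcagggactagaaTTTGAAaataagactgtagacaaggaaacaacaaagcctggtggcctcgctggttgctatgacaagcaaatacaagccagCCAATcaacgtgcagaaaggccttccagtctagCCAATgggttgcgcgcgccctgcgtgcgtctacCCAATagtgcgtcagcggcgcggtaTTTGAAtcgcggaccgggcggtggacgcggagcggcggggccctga
Ccnf: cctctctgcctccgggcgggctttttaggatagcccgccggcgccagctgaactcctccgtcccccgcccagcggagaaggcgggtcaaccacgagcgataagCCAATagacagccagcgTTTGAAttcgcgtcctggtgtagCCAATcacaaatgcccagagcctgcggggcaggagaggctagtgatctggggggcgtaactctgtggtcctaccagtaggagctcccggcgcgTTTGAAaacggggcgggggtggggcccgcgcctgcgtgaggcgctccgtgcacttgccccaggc
Ccnb2 held 2 CHR motifs (from positions 84 and 255 of the window) and 3 CCAAT boxes. Ccnf held 2 CHR motifs (from positions 121 and 237) and 2 CCAAT boxes. Ccne1 held 0 motifs of the 3 kinds, the second start site of Ccnd3 held 1 CCAAT box, the first 0, and Ccnb1 held 2 CCAAT boxes. The motifs did not overlap each other. A match is a run of letters and not a known binding site, and a window without a match says only that these letters are not in it.

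Array medians were 4.74 to 4.79 on the log2 scale. RMA processing gives the arrays a common distribution, so these medians do not measure how alike the samples were. Pearson's r over the 27022 kept probe sets was 0.994 to 0.995 within groups and 0.991 to 0.993 between them. Induced replicate 1 stood apart in sex-linked transcripts. Xist was at 5.86 there and 11.19 in induced replicate 2, against 10.57 and 10.80 in the controls, and the Y-linked gene Eif2s3y was at 9.38 and 2.72, against 2.82 and 2.52. Results are therefore also given without this array. These values are those of mainly male cells on induced replicate 1 and mainly female cells on the other arrays. Sex and any other difference of this array cannot be told apart in this design. The part of sex in the results was not tested.

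Most cyclin probe sets had a slightly lower mean in the induced cells, most of all those of Ccnd2, and the low values lay mainly on induced replicate 1. Of the 19 kept probe sets, 18 were on average lower in induced cells (background 49.3% of all kept probe sets). The median difference was -0.20 on the log2 scale, against 0.00 over all kept probe sets. The 19 probe sets stand for 8 genes and 7 are of Ccnd2, so they are not independent observations. Without induced replicate 1, 9 of the 19 were lower and 9 higher, with a median of 0.00. In limma, with Benjamini-Hochberg adjustment over all 27022 kept probe sets, 0 of the 19 passed an adjusted p of 0.05 (0% of all kept probe sets did). At an unadjusted p under 0.05, 1 of the 19 was lower (4.69% of all) and 0 were higher (5.41% of all). Both induced arrays lay below both controls in 7 of the 19 (18.2% of all kept probe sets) and above both controls in 0 (20.9%). Of those 7, 5 were of Ccnd2. With 2 arrays a group, the exact two-sided permutation test of a single probe set cannot give a p below 0.333. In a bulk sample, fewer dividing cells and less cyclin RNA per cell cannot be told apart.

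The 2 induced arrays differed from each other more than the groups did. Induced replicate 1 was the lowest of the 4 arrays in 18 of the 19 kept probe sets (25.4% of all kept probe sets) and lay below induced replicate 2 in 19 of 19 (51.9%). The gap between the induced arrays, replicate 1 minus replicate 2, ran from -0.71 to -0.15 with a median of -0.42, against a median of -0.01 over all kept probe sets. The gap between the control arrays, replicate 1 minus replicate 2, ran from -0.19 to 0.48 with a median of 0.07. Against the mean of the controls, the median cyclin difference was -0.41 on induced replicate 1 and -0.00 on induced replicate 2. Induced replicate 2 lay within the range of the 2 controls in 9 of the 19 (31.0%).

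**Figure D1:**
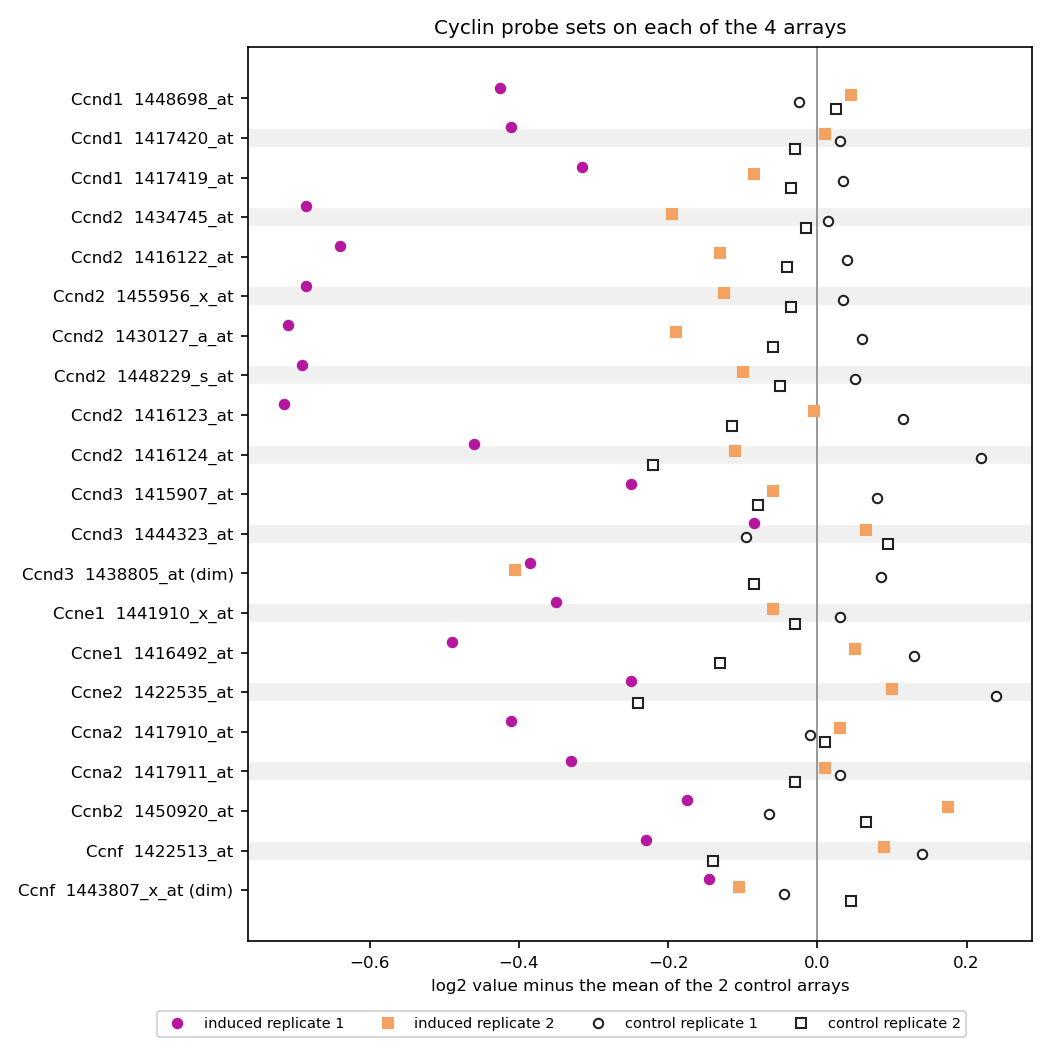
Each of the 21 cyclin probe sets on the 4 arrays, drawn as the log2 value minus the mean of the 2 control arrays, with filled symbols for the induced arrays, open symbols for the controls, and "dim" for the 2 probe sets below the filter. Induced replicate 1 is the leftmost point in 18 of the 19 kept probe sets, while induced replicate 2 lies close to the controls.

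The D cyclins, the G1 partners of CDK4 and CDK6, included the lowest values of the family relative to the controls, those of Ccnd2. Their 12 kept probe sets were all lower on average in induced cells (49.3% of all kept probe sets). Both induced arrays lay below both controls in 6 of them (18.2% of all kept probe sets), 5 of Ccnd2 and 1 of Ccnd1. The median difference was -0.32, from -0.45 to -0.01. That median was -0.55 on induced replicate 1 and -0.10 on induced replicate 2. As 7 of the 12 belong to Ccnd2, the median over the brightest probe set of each D cyclin gene was smaller, -0.19, equal to that of Ccna2 (-0.19).

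Ccnd2, which encodes cyclin D2, was represented by 7 probe sets that measure the same transcript and are therefore not independent. The brightest, 1434745_at, read 11.31 and 11.80 in induced arrays, against 12.01 and 11.98 in control arrays. Its difference was -0.45 ± 0.17 (SE, n = 2 and 2, 95% interval -0.87 to -0.02), or 1.36-fold lower, with an unadjusted p of 0.0431 and an adjusted p of 0.477 in limma. Both induced arrays lay below both controls, and induced replicate 1 was far below the other 3 arrays. Probe set 1416122_at read 10.93 and 11.44 in induced arrays and 11.61 and 11.53 in controls, a difference of -0.38 ± 0.18. Probe set 1455956_x_at read 10.52 and 11.08 in induced arrays and 11.24 and 11.17 in controls, a difference of -0.41 ± 0.19. In both, induced replicate 2 lay just below the lower control, so the groups did not overlap. Probe set 1430127_a_at read 10.16 and 10.68 in induced arrays and 10.93 and 10.81 in controls, a difference of -0.45 ± 0.18 with an adjusted p of 0.501 in limma. Probe set 1448229_s_at read 9.59 and 10.18 in induced arrays and 10.33 and 10.23 in controls, a difference of -0.39 ± 0.20. In these too the groups did not overlap.

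The 2 dimmest probe sets of Ccnd2 had overlapping groups. Probe set 1416123_at read 8.35 and 9.06 in induced arrays and 9.18 and 8.95 in controls, a difference of -0.36 ± 0.24. Probe set 1416124_at read 6.81 and 7.16 in induced arrays and 7.49 and 7.05 in controls, a difference of -0.28 ± 0.19. In both, induced replicate 2 lay between the controls, and the control arrays differed from each other more than in the 5 brighter probe sets. Over the 7 probe sets induced replicate 1 was below the control mean by values from -0.71 to -0.46, and induced replicate 2 by values from -0.20 to -0.00. None of the 7 differences was above 0 with any 1 array left out, and without induced replicate 1 the brightest was at -0.20 ± 0.12 (adjusted p = 0.753 in limma, induced replicate 2 alone standing for its group).

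Ccnd1, which encodes cyclin D1, the D cyclin best known as a target of growth factor and Wnt signals, had smaller differences in 3 probe sets. Probe set 1448698_at read 8.66 and 9.13 in induced arrays and 9.06 and 9.11 in controls. Probe set 1417420_at read 8.52 and 8.94 in induced arrays and 8.96 and 8.90 in controls. On both, induced replicate 1 was low and induced replicate 2 was level with the controls, and the groups overlapped. Probe set 1417419_at read 8.25 and 8.48 in induced arrays and 8.60 and 8.53 in controls, so that the groups did not overlap there. The differences of the 3 were -0.19 ± 0.17, -0.20 ± 0.15 and -0.20 ± 0.12 (SE), with adjusted p values of 0.779, 0.743 and 0.633 in limma. Without induced replicate 1 they were 0.04, 0.01 and -0.09, so that 2 of the 3 changed sign.

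Ccnd3, which encodes cyclin D3, had 2 kept probe sets and 1 below the filter, and the 3 did not show 1 pattern. The brightest, 1415907_at, read 7.91 and 8.10 in induced arrays and 8.24 and 8.08 in controls, a difference of -0.16 ± 0.12 (adjusted p = 0.735 in limma). Induced replicate 2 lay between the controls, so the groups overlapped. Probe set 1444323_at read 4.91 and 5.06 in induced arrays and 4.90 and 5.09 in controls, a difference of -0.01 ± 0.12. It was the 1 kept cyclin probe set in which control replicate 1, not induced replicate 1, was lowest. The probe set below the filter, 1438805_at, read 3.78 and 3.76 in induced arrays and 4.25 and 4.08 in controls. There both induced arrays were low by the same amount, a difference of -0.39 ± 0.11 in the fit over all 45037 probe sets without a filter (unadjusted p = 0.0117, adjusted p = 0.498 in limma), at a level where 3 of the 4 arrays were under the filter.

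**Figure D2:**
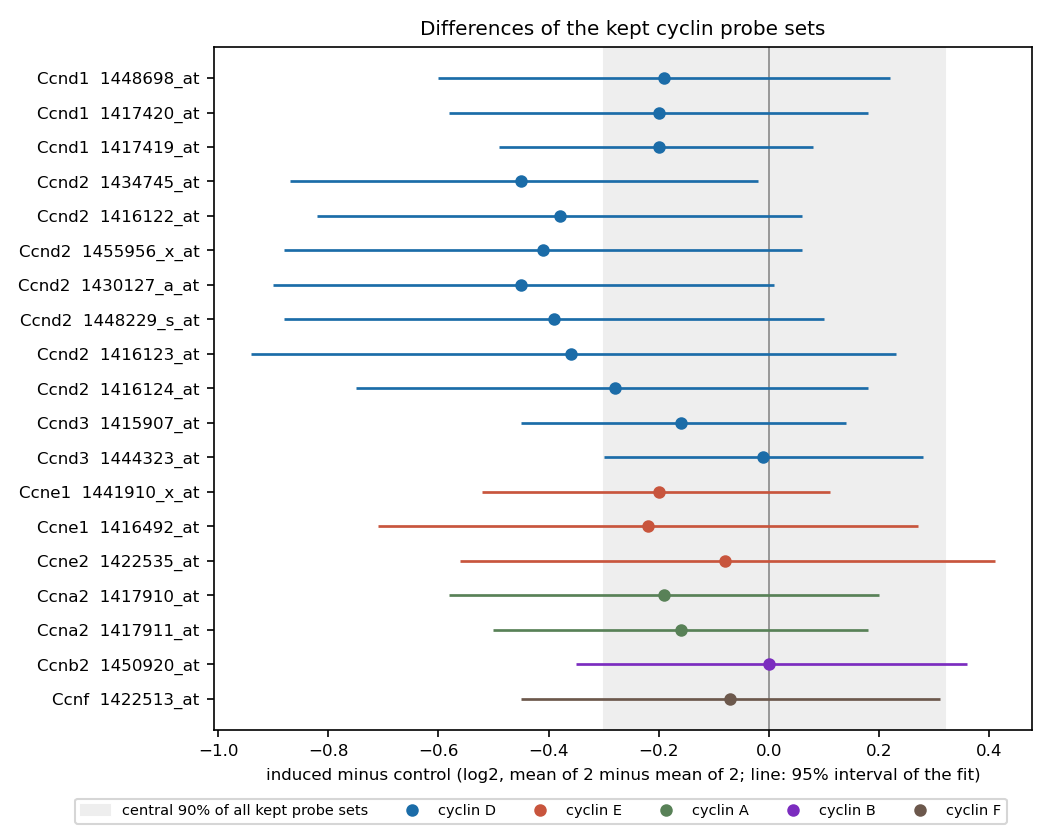
Difference between the induced and control means (log2) for the 19 kept cyclin probe sets, coloured by cyclin family, with 95% intervals from limma, and in grey the range that holds the central 90% of all kept probe sets (-0.30 to 0.32). The points of Ccnd2 lie farthest to the left, with 6 of 7 outside the grey range, and 1434745_at is the probe set whose interval does not reach 0.

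The E cyclins, partners of CDK2 at the entry to S phase, had a median difference of -0.20 over 3 kept probe sets of 2 genes, -0.35 on induced replicate 1 and 0.05 on induced replicate 2. For Ccne1, which encodes cyclin E1, probe set 1441910_x_at read 6.64 and 6.93 in induced arrays and 7.02 and 6.96 in controls, a difference of -0.20 ± 0.13. The groups did not overlap, though induced replicate 2 was close to control replicate 2. The other, 1416492_at, read 6.12 and 6.66 in induced arrays and 6.74 and 6.48 in controls, a difference of -0.22 ± 0.20, and its groups overlapped. For Ccne2, which encodes cyclin E2, probe set 1422535_at read 6.96 and 7.31 in induced arrays and 7.45 and 6.97 in controls. Its difference was -0.08 ± 0.20 (95% interval -0.56 to 0.41), and control replicate 2 was as low as induced replicate 1. Adjusted p values of the 3 were 0.668, 0.791 and 0.958 in limma.

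Ccna2 encodes cyclin A2, the cyclin of S phase and G2, and its 2 probe sets gave the same picture. Probe set 1417910_at read 8.58 and 9.02 in induced arrays and 8.98 and 9.00 in controls, a difference of -0.19 ± 0.16 (adjusted p = 0.774 in limma). Probe set 1417911_at read 8.25 and 8.59 in induced arrays and 8.61 and 8.55 in controls, a difference of -0.16 ± 0.14 (adjusted p = 0.781 in limma). Induced replicate 1 was low on both, at -0.40 and -0.33 from the control mean, while induced replicate 2 was at 0.03 and 0.01. The groups overlapped on both probe sets, and without induced replicate 1 both differences were above 0.

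The mitotic side of the family was covered by Ccnb2, which encodes cyclin B2, and by Ccnf. Ccnb2 read 8.13 and 8.48 in induced arrays and 8.24 and 8.37 in controls, a difference of 0.00 ± 0.14 (95% interval -0.35 to 0.36, unadjusted p = 0.993 in limma). The 2 induced arrays lay on either side of the controls, at -0.18 and 0.18 from their mean. The brighter probe set of Ccnf, 1422513_at, read 5.83 and 6.15 in induced arrays and 6.20 and 5.92 in controls, a difference of -0.07 ± 0.15 (95% interval -0.45 to 0.31, adjusted p = 0.946 in limma). Its groups overlapped. The dim one, 1443807_x_at, read 3.39 and 3.43 in induced arrays and 3.49 and 3.58 in controls, all under the filter level. By their brightest probe set, Ccnb2 and Ccnf were the 2 genes of the family with the smallest difference between group means, followed by Ccne2. Whether the D, E, A and B cyclins differed from each other in their response was not tested, and their intervals overlap.

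Genes whose levels over the 4 arrays were most like a cyclin's were named by the Euclidean distance between profiles centred on their own mean, over 4 arrays and 12788 genes, as a description. Closest to Ccnd2 (1430127_a_at) were Armcx3, at a distance of 0.0436, the kinase gene Melk (0.0527) and the replication gene Gins1 (0.0643), a subunit of the GINS complex at the replication fork. Closest to Ccne1 (1416492_at) were Irak1bp1 (0.0336), Mpdz (0.0518) and the cohesin-associated gene Pds5b (0.0610). Closest to Ccna2 (1417910_at) were Man2a2 (0.0336), the replication repair gene Mms22l (0.0435) and Ube2c (0.0459), which encodes the ubiquitin-conjugating enzyme of the anaphase-promoting complex. Ube2c read 8.64 and 9.12 in induced arrays and 9.09 and 9.07 in controls, with the same low value on induced replicate 1 as Ccna2. Closest to Ccnb2 were Mturn (0.0291), Top3b (0.0295) and Ngfr (0.0296), all with differences within 0.02 of 0.

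Other genes of dividing cells were, like most of the cyclin probe sets, lowest on induced replicate 1. By their brightest probe set this held for all 15 kept S phase genes and all 16 G2 and M phase genes (26.5% of named genes). All 15 kept S phase genes, of 16 listed, had both induced arrays below both controls, with a median difference of -0.49, which was -0.67 on induced replicate 1 and -0.33 on induced replicate 2. Their summed linear signal was 8719 and 11370 in induced arrays, against 14118 and 12763 in controls. By their brightest probe set, all 16 G2 and M phase genes were on average lower in induced cells, 9 of them without overlap, with a median of -0.23, which was -0.37 on induced replicate 1 and -0.05 on induced replicate 2. Their summed signal was 4291 and 5580 in induced arrays, against 5592 and 6000 in controls. Other kept probe sets of 4 of the 16 gave the opposite sign: 4 of 4 for Hmmr, 2 of 2 for Top2a, 1 of 3 for Tpx2 and 1 of 2 for Kif11. With each gene's kept probe sets averaged, 15 of the 16 were lower, with a median of -0.16, and Hmmr was not. Of the S phase genes, Cdc45 and Slbp each had 1 other kept probe set, of the opposite sign. Over the 13489 named genes, by the same choice of probe set, 50.4% had a lower mean, 19.3% both induced arrays below both controls and 20.1% both above. In limma 0 genes of either list passed the adjusted threshold. An unadjusted p under 0.05 was reached by 11 of 15 S phase genes and by 2 of 16 G2 and M phase genes, against 9.62% of the named genes. S phase genes were low on both induced arrays, while the cyclins and the G2 and M phase genes were low mainly on induced replicate 1, a difference between lists that was not tested.

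**Figure D3:**
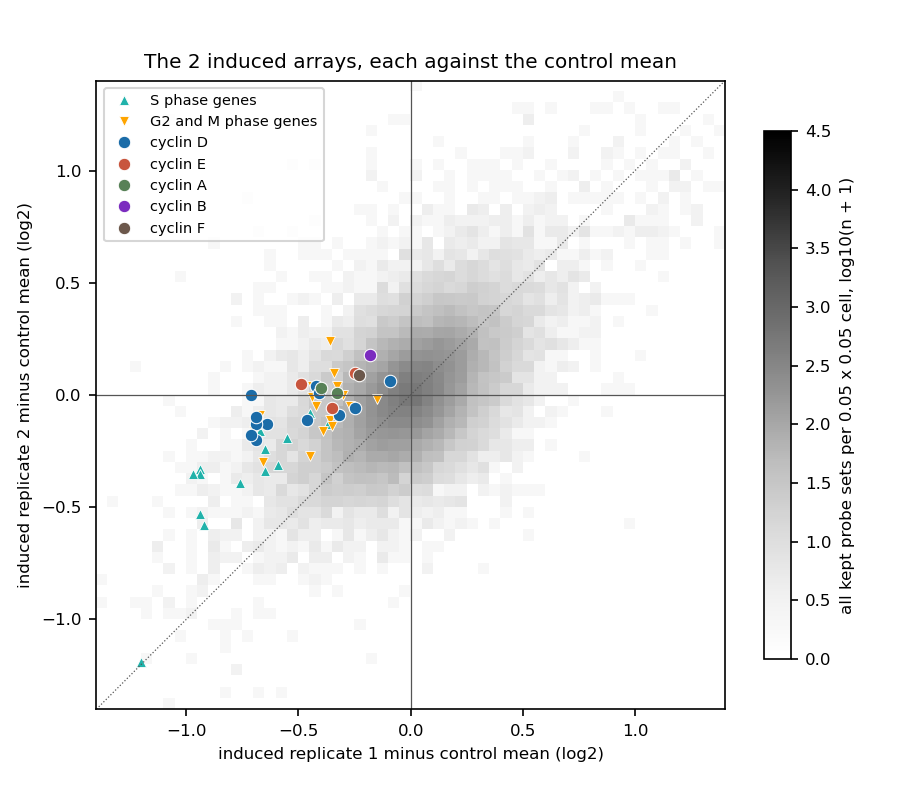
Each induced array minus the mean of the controls (log2), replicate 1 across and replicate 2 up, for the 19 kept cyclin probe sets, the 15 S phase genes and the 16 G2 and M phase genes, over all kept probe sets in grey (those beyond the axes are not drawn). Cyclins lie left of 0 and near 0 on the vertical axis, with medians of -0.41 and -0.00, whereas S phase genes lie below 0 on both axes, with medians of -0.67 and -0.33.

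Markers of some cell types also differed between the groups, while those of others differed mainly between the 2 induced arrays or showed no common direction. Of 9 hair matrix and shaft genes 8 had both induced arrays above both controls (20.1% of named genes), with a median of 0.84 and a summed signal of 21916 and 26150 in induced arrays, against 12573 and 15668 in controls. Of 7 basal keratinocyte genes 6 lay lower in both induced arrays (19.3% of named genes), with a median of -0.17 and a sum of 37985 and 36748 in induced arrays, against 42532 and 42812 in controls, though 2 of the 3 further kept probe sets of Trp63 were higher. Of 5 suprabasal keratinocyte genes 4 also lay lower in both, by less, with a median of -0.07 and a sum of 74973 and 71338 in induced arrays, against 76469 and 75756 in controls. Of 5 red blood cell genes 2 passed the filter and both lay higher in both induced arrays. One was Alas2 (0.14 ± 0.10) and the other Slc4a1, an anion exchanger gene, at 6.04 and 5.88 in induced arrays and 5.21 and 5.29 in controls, a difference of 0.71 ± 0.11 (unadjusted p = 0.000626 in limma). The 7 melanocyte genes had a median of 0.18 and were lower on induced replicate 1 than on induced replicate 2, with sums of 3826 and 5742, against 4186 and 4367. Of 6 dermal fibroblast genes 3 passed the filter, with a sum of 244 on induced replicate 1 and 454 on induced replicate 2, against 370 and 354, and of 5 endothelial genes only Kdr passed it, at 5.37 and 5.06, against 5.33 and 5.63. The 5 kept Langerhans and T cell genes had a median of 0.04, and the 2 kept skeletal muscle genes one of -0.05. The part of these cell types in the cyclin values was not tested.

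All 4 genes listed for the kinases that the cyclins activate had both induced arrays below both controls (19.3% of named genes), with a median difference of -0.20, which was -0.29 on induced replicate 1 and -0.17 on induced replicate 2. Induced replicate 1 was the lowest array in all 4. Cdk1, the kinase of mitosis, read 8.89 and 9.21 in induced arrays and 9.37 and 9.38 in controls, a difference of -0.33 ± 0.13 (adjusted p = 0.486 in limma). Cdk6 differed by -0.21 ± 0.10, Cdk4 by -0.19 ± 0.09 and Cdk2 by -0.19 ± 0.13, and 0 of the 4 passed the adjusted threshold in limma, 1 of them having an unadjusted p under 0.05 (9.62% of named genes). The small CDK-binding subunits Cks1b (-0.24 ± 0.11) and Cks2 (-0.16 ± 0.11) also had both induced arrays below both controls (19.3% of named genes). Cdk2 was closest to the controls on induced replicate 2, at -0.05 from their mean, against -0.34 on induced replicate 1.

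Activators and inhibitors of the CDKs had no common direction. Of 6 activation genes 3 had a lower and 3 a higher mean, with a median of -0.02. Mnat1, a subunit of the CDK-activating kinase, differed by -0.27 ± 0.09, without overlap (7.78 and 7.77 induced, 8.07 and 8.03 control). The phosphatase genes Cdc25b and Cdc25a differed by -0.25 ± 0.14 and 0.27 ± 0.15, both with overlapping groups. Cdk7, the kinase that activates other CDKs, was at 0.09 ± 0.11, with 2 of its 4 other kept probe sets of the opposite sign. Of the inhibitory kinases, Wee1 was at 0.19 ± 0.10 and Pkmyt1 at -0.26 ± 0.15.

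Ubiquitin ligase genes that destroy cyclins were divided. In the SCF list of 8 genes, 3 lay lower and 4 higher on both induced arrays (19.3% and 20.1% of named genes), with a median of 0.04. Fbxo4, the F-box protein gene linked to cyclin D1 turnover, read 5.81 and 5.91 in induced arrays and 6.26 and 6.32 in controls, a difference of -0.43 ± 0.10 (unadjusted p = 0.00503, adjusted p = 0.268 in limma). Skp2, an F-box protein gene of the p27 pathway, differed by -0.57 ± 0.14, with 1 of its 5 other kept probe sets of the opposite sign, and Cul1, the scaffold, by -0.17 ± 0.10. Fbxw7, the F-box protein gene for cyclin E, differed by 0.23 ± 0.10, with 8.48 and 8.46 in induced arrays and 8.19 and 8.29 in controls. Of the 10 genes of the anaphase-promoting complex list, 7 had a lower mean (50.4% of named genes), with a median of -0.13. Cdc20 (-0.24 ± 0.12), Ube2s (-0.23 ± 0.12) and Cdc16 (-0.15 ± 0.10), 3 of the 10, had both induced arrays below both controls (19.3% of named genes). The inhibitor gene Fbxo5 (-0.31 ± 0.20) overlapped, its induced replicate 2 (7.97) being level with the controls (7.97 and 7.98). Without induced replicate 1 the median of the anaphase-promoting complex list was -0.00. Known substrates of cyclin F had a median of -0.28 over 4 genes, with the licensing gene Cdc6 at -0.53 ± 0.16, Nusap1 at -0.27 ± 0.12, Rrm2 at -0.25 ± 0.12 and Ccp110 at -0.28 ± 0.20. Without induced replicate 1 this median was -0.15, and without induced replicate 2 it was -0.43. Rrm2 is also among the S phase genes, and Nusap1, Cdc20 and Ube2c are also among the G2 and M phase genes. These lists are therefore not independent of each other.

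**Figure D4:**
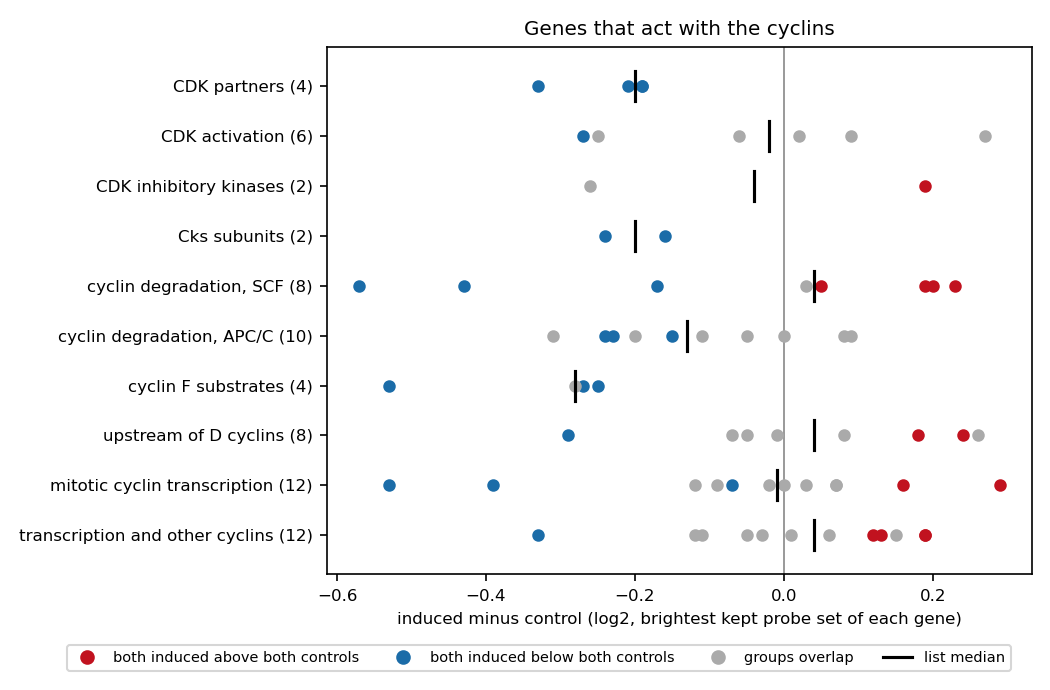
Induced minus control difference (log2) of each gene that works with the cyclins, by list, with the number of kept genes in brackets, black bars for list medians, and colours for whether both induced arrays lay above, below or overlapping the controls. The 4 CDK genes and 2 Cks genes all lie below 0 without overlap, and the SCF genes lie on both sides.

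Genes upstream of the cyclins also had no common direction. Of 8 kept genes of signalling to the D cyclins, 4 had a lower and 4 a higher mean, with a median of 0.04. Ctnnb1, the beta-catenin gene, differed by -0.29 ± 0.10, with 12.15 and 12.22 in induced arrays and 12.46 and 12.49 in controls. Fosl1 (0.24 ± 0.12) and Tcf7l1 (0.18 ± 0.11), 2 of the 8, had both induced arrays above both controls (20.1% of named genes). Their adjusted p values in limma were 0.565 and 0.646, and the 1 other kept probe set of each gave the opposite sign. Fos was at 0.26 ± 0.20 with overlap. A list for mitotic cyclin transcription held 12 genes: Foxm1, Mybl2 and genes of the E2F, retinoblastoma-related and MuvB groups. Of these 7 had a lower and 5 a higher mean, with a median of -0.01. Foxm1 was at 0.07 ± 0.12 and Mybl2 at -0.09 ± 0.14, both with overlap. The other kept probe sets of both (2 of 2 and 1 of 1) gave the opposite sign, and averaging a gene's probe sets changed the sign of both. E2f1, an activator of S phase genes, differed by -0.39 ± 0.12 and Rbl1, the p107 gene, by -0.53 ± 0.19, while E2f2 differed by 0.29 ± 0.10 and Lin9 by 0.16 ± 0.10. A further kept probe set of E2f1, 1 of 2, gave the opposite sign.

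Transcription cyclins and other cyclins outside the members served as a comparison within the gene family. Of 12 such genes 5 had a lower and 7 a higher mean, with a median of 0.04. Induced replicate 1 was the lowest array in 1 of the 12 (26.5% of named genes), against 18 of 19 cell cycle cyclin probe sets. The units are unlike, since the 12 are genes by their brightest probe set. The 19 are probe sets of 8 genes, 7 of them of Ccnd2. The difference between the 2 sets was not tested. Ccng1, a p53-responsive cyclin gene, differed by -0.33 ± 0.13, with 9.12 and 9.06 in induced arrays and 9.57 and 9.27 in controls, while 1 of its 2 further kept probe sets pointed the other way. Ccnl1 (0.19 ± 0.10) and Ccnt2 (0.19 ± 0.11), whose products act in splicing and transcription elongation, lay higher in both induced arrays. So did Ccng2 (0.13 ± 0.09) and Ccnt1 (0.12 ± 0.10), making 4 of the 12 (20.1% of named genes). Of 3 further kept probe sets of Ccnt2, 1 was lower. In limma 0 of these 12 passed the adjusted threshold and 1 had an unadjusted p under 0.05 (9.62% of named genes). The germline cyclins Ccna1 and Ccnb3 were below the filter on these arrays.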

How the data were processed

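Total RNA of 2 induced and 2 control samples of sorted cells was hybridised, each to 1 Affymetrix mouse array. The deposited log2 values were made by the authors with RMA, per the submitters' processing notes, which give no version. The sources used here name no chip definition. Since RMA gives the arrays a common distribution, these values cannot show a general shift in RNA content. There were 45101 probe sets, of which 64 controls (AFFX) were left out, and 0 columns of other samples. Platform annotation gave 34945 of the remaining 45037 a single gene, 932 several and 9160 none. Of the single-gene probe sets 34741 matched the RefSeq gene table of GRCm38, which supplied current symbols.

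Kept probe sets (mean log2 at or above the 40th percentile, 27022) were fitted with limma 3.58.1 in R 4.3.3 (lmFit, eBayes, two-sided, Benjamini-Hochberg). There were 2 residual and 3.82 prior degrees of freedom, so p-values depend mostly on the variance shared by all probe sets (prior SD 0.115). Differences are induced minus control means on the log2 scale, and folds are 2 to that power. The number of arrays limits precision. Related genes are shown by their brightest kept probe set, and of each list up to 4 with the largest moderated statistic are named, with others where a count or a contrast needed them, chosen after their values were seen. Members, lists, tests and alternatives were chosen with earlier results of these data known. On 10 simulated sets of 27022 probe sets with 200 changed, the test recovered 1.20% of those changed 1.5-fold, 68.8% at 2-fold and 97.4% at 4-fold, with 6.40 false calls on average, with spreads drawn from the fitted prior.

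Replicate numbers are not tied to litters in the labels, so the numbers were not taken as pairs. Deviations of same-numbered arrays correlated at -0.1001. With 2 arrays a group, this value cannot show whether litters were paired.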

Additional observations from a re-analysis of the deposited data

How the results depend on the processing

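The count of cyclin probe sets past an adjusted p of 0.05 was 0 under every alternative run: quantile normalization repeated, array medians centred, a trended robust prior, no filter, a filter at the 60th percentile, the replicate number as a block, a threshold of 0.10, and each array left out. Unadjusted p under 0.05 was reached by 0 to 11 of the 18 to 21 tested, the highest without induced replicate 2, and by 5 with the trended robust prior. Over all probe sets, that prior called 126, and leaving out an array called 0 to 6. With the replicate block 0 probe sets were called and the brightest Ccnd2 probe set stayed at -0.45 (adjusted p = 0.620 in limma). A crossed replicate block, chosen after seeing the data, likewise called 0.

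Without induced replicate 1, 9 of 19 kept cyclin probe sets were below 0, and without induced replicate 2 all 19 were. With an array left out, the D median ran from -0.55 to -0.10 and the E median from -0.35 to 0.05 (0.05 without induced replicate 1). With the brightest probe set of each gene the D median was -0.19. The single differences ran from -0.42 to 0.04 (Ccnd1, 1448698_at), -0.41 to 0.01 (Ccnd1, 1417420_at), -0.11 to 0.08 (Ccnd3, 1444323_at), -0.49 to 0.05 (Ccne1, 1416492_at), -0.32 to 0.16 (Ccne2), -0.40 to 0.03 and -0.33 to 0.01 (Ccna2), -0.18 to 0.18 (Ccnb2) and -0.23 to 0.09 (Ccnf). Ccnb2 was at -0.00 after quantile normalization and after centring, a sign without size. None of the 7 Ccnd2 probe sets was above 0 in any of these alternatives. List medians ran from -0.29 to -0.17 (CDK), -0.12 to 0.04 (activation), 0.00 to 0.08 (SCF), -0.43 to -0.15 (cyclin F substrates, -0.15 without induced replicate 1), -0.19 to -0.00 (anaphase-promoting complex), -0.07 to 0.01 (mitotic transcription) and 0.03 to 0.09 (other cyclins, 0.01 with a gene's probe sets averaged). The cause was not tested. Fits on 3 arrays had 1 residual degree of freedom, and their lone array was taken to vary as the opposite group did.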
